A study of Mus musculus with 2 samples.

Results

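The 10 genes Clec4f, Vsig4, Cd5l, Marco, Timd4, Cd163, Folr2, Clec1b, Cd207 and Fabp7 are used to mark Kupffer cells, the resident macrophages of the liver. They were taken as a named list from the 31053 genes counted, and their levels were read in classes of cell barcodes gated on other genes. The cells were sorted as YFP-positive from livers of the Rb family triple knockout mouse, a model of hepatocellular carcinoma in which YFP reports Cre recombination of floxed alleles. All animals were untreated and carried this genotype, and how Cre was delivered and the age of the animals are not given in the sources used here. Single cells were profiled in droplets with 10x 3' v3 chemistry in 2 libraries, 1 of early lesions from 3 pooled mice and 1 of macroscopic lesions from a number of mice that is not given. With 1 library per stage no difference between stages has a replicate check, and every interval in the text is a 95% interval of counting error only.

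Kupffer cells line the sinusoids, take up particles, complement-coated microbes and dying cells from the blood, and recycle the iron of red cells. They are seeded before birth and maintain themselves, and monocytes can replace lost ones, acquiring the resident genes gradually, with Timd4 known as a late one. Among the 10 genes, Clec4f, Cd207 (langerin) and Clec1b (CLEC-2) encode C-type lectins, of which Clec4f is the most restricted to Kupffer cells in mice. Vsig4 is a complement receptor, Marco and Cd163 are scavenger receptors for bacteria and for haemoglobin bound to haptoglobin, and Timd4 binds phosphatidylserine on dying cells. Folr2 is a folate receptor, Cd5l is a secreted protein of the scavenger receptor family, and Fabp7 is an intracellular fatty acid-binding protein.

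The sequences just before the start sites are shown for 5 of the genes, because Clec4f, Cd5l and Vsig4 were the members found together most regularly and Cd207 and Marco are compared as a pair further on. Each run is the 250 bases upstream of the RefSeq start (GRCm38.p6), 5′ to 3′ on the gene's strand. Capitals mark 3 short motifs, searched on both strands: the PU.1 core GAGGAA, a MAF motif TGCTGA and a nuclear receptor motif AGGTCA.
Clec4f (chr6:83656117-83656366, minus strand): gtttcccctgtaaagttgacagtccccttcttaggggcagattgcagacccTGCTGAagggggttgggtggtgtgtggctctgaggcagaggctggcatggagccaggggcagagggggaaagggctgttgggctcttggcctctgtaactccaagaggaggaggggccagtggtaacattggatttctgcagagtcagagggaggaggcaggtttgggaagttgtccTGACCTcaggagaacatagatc
Cd5l (chr3:87357631-87357880, plus strand): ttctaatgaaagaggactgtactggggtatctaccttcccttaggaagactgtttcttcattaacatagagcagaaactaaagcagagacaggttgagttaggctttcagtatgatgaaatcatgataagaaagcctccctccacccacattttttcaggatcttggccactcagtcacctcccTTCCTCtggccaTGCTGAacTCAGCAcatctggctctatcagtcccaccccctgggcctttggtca
Vsig4 (chrX:96293439-96293688, minus strand): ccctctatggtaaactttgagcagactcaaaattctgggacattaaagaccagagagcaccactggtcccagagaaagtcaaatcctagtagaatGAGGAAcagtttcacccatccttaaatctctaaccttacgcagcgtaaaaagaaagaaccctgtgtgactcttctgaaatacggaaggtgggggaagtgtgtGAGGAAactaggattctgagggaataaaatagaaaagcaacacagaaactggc
Cd207 (chr6:83677858-83678107, minus strand): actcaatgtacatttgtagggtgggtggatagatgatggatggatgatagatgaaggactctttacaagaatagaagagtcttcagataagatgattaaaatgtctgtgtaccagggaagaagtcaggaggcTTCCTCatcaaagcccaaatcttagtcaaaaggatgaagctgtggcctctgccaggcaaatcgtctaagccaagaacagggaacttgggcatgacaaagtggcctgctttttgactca
Marco (chr1:120505025-120505274, minus strand): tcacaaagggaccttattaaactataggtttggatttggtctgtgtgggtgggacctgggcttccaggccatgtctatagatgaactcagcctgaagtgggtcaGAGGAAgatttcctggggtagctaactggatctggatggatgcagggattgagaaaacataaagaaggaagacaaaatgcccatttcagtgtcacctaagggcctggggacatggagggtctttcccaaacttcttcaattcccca

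The PU.1 core stood in 4 of the 11 upstream windows of the 10 genes (Folr2 has 2 starts), against 23.2% of all 32851 RefSeq windows of that length. The MAF motif stood in 6 of 11, against 16.1% of all windows. The nuclear receptor motif stood in 3 of 11, against 14.0%. The windows with the PU.1 core were those of Cd5l, Vsig4, Cd207 and Marco, and among the printed windows the MAF motif was in those of Clec4f and Cd5l. No matches in the printed windows overlapped. Clec1b and Cd163 held none of the 3 motifs. A match is a description of letters, not a binding site.

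By position (GENCODE M21, GRCm38), Clec4f and Cd207 are direct neighbours on the minus strand of chromosome 6. Clec4f (ENSMUSG00000014542) spans 83644542 to 83656187 and Cd207 (ENSMUSG00000034783) 83671215 to 83677857, with 15027 bases and 0 annotated genes between them. The RefSeq start of Clec4f lies inside its GENCODE span, so the printed Clec4f window partly overlaps the gene as GENCODE marks it. The nuclear receptor match of that window is in the overlapping part. Cd163 (124304656 to 124330527) and Clec1b (129397297 to 129409335) lie on the plus strand of the same chromosome. Vsig4 lies on chromosome X (96247203 to 96293438, minus), Cd5l on chromosome 3 (87357881 to 87371073, plus) and Marco on chromosome 1 (120474538 to 120505024, minus). Timd4 lies on chromosome 11 (46810800 to 46844332, plus), Folr2 on chromosome 7 (101839988 to 101857194, minus) and Fabp7 on chromosome 10 (57784881 to 57788450, plus). Clec1b overlaps Clec9a, which was counted on the same strand, and Folr2 overlaps Gm10602 on the other strand, so the counts of Clec1b and Folr2 are uncertain to that extent.

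The early library held 2620 barcodes with at least 1000 UMIs (unique molecular identifiers, each a captured RNA molecule), with a median of 2946 UMIs. The macroscopic library held 241, with a median of 14223, and the libraries shared 0 barcodes. Barcodes with at least 3 UMIs of C1qa, C1qb and C1qc together are called C1q barcodes, and were split by Gpnmb plus Mmp12, which mark recruited and lipid-associated macrophages. In the early library 1757 C1q barcodes (67.1%) had 0 of these UMIs (here Gpnmb-negative), 93 had 1 and 267 (10.2%) had at least 2 (here Gpnmb-positive). Both names stand for the sum of Gpnmb and Mmp12, so a Gpnmb-positive barcode can hold Mmp12 alone. A further 54 passed the hepatocyte gate (Alb at least 0.5% of UMIs), 90 the duct gate (Krt19 plus Krt7 at least 2), 73 the T cell gate (Cd3e plus Trbc2 at least 2), 269 none and 17 more than 1. In the macroscopic library the 3 C1q groups held 9, 4 and 11 barcodes, the hepatocyte gate 98 and the duct gate 0. Hepatocyte, duct and T cell barcodes had 40179, 35120 and 4004 CPM (UMIs per 1e6) of their own 9-gene lists, which hold no gate gene. Of 9 macrophage markers Gpnmb-negative C1q barcodes had 17893 CPM, hepatocyte-gated 60.1, T cell-gated 3465 and ungated ones 24057. Ungated barcodes also had 100823 CPM of erythroid, 4209 of cholangiocyte, 2266 of neutrophil and 1330 of B cell markers, and some of the macrophage markers, such as Tyrobp, are shared with neutrophils. The sort, the 1000-UMI minimum and the unequal depth can each set these shares.

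In early lesions all 10 genes were higher in Gpnmb-negative C1q barcodes than in Gpnmb-positive, hepatocyte, duct, T cell or ungated ones, and together stood at 20528 CPM there (20411 to 20645). In the 93 C1q barcodes with 1 Gpnmb or Mmp12 UMI the sum was 14408 CPM. Marco there, at 2956 CPM (2792 to 3126), overlapped in interval with its level in the Gpnmb-negative class, 2823 (2780 to 2867). The order of levels on this UMI scale, which counts 1 tag per molecule and needs no length correction, began with Cd5l at 7433 CPM, Clec4f at 3924, Vsig4 at 3092 and Marco at 2823. Folr2 (793 CPM; 769.9 to 816) and Fabp7 (791; 768 to 814) followed and could not be separated by their intervals. Cd163 stood at 626 CPM (606 to 647). Clec1b (374; 358 to 389.98), Cd207 (359; 344 to 375) and Timd4 (313; 299 to 328) closed the order, and the intervals of Clec1b and Cd207 overlapped each other but not that of Timd4. Cd5l alone gave 36.2% of the list's UMIs and Timd4 1.52%. Per barcode the list took a median of 2.08% of UMIs, with 5% of barcodes under 0.955% and 5% over 3.18%.

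Detection followed the order of levels except that Cd207, above Timd4 in level, was below it in detection. Cd5l had a UMI in 98.2% of the 1757 barcodes (97.4 to 98.8), Clec4f in 96.5%, Vsig4 in 96.5% and Marco in 78.7% (76.7 to 80.6). Folr2 was detected in 72.6%, Fabp7 in 69.3%, Cd163 in 66.2%, Clec1b in 56.5%, Timd4 in 51.3% and Cd207 in 41.8% (39.5 to 44.2). These shares come from barcodes with a median of 2473 UMIs. In classes that should lack the genes, the shares were 0% to 16.7% in hepatocyte-gated barcodes (median 17040 UMIs), 0% to 11.1% in duct-gated (11637) and 0% to 5.48% in T cell-gated barcodes (2621). No barcode of those 3 gates carried more than 3 UMIs of any 1 member, against a highest count of 274 for Cd5l and 268 for Marco in Gpnmb-negative C1q barcodes.

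**Figure D1:**
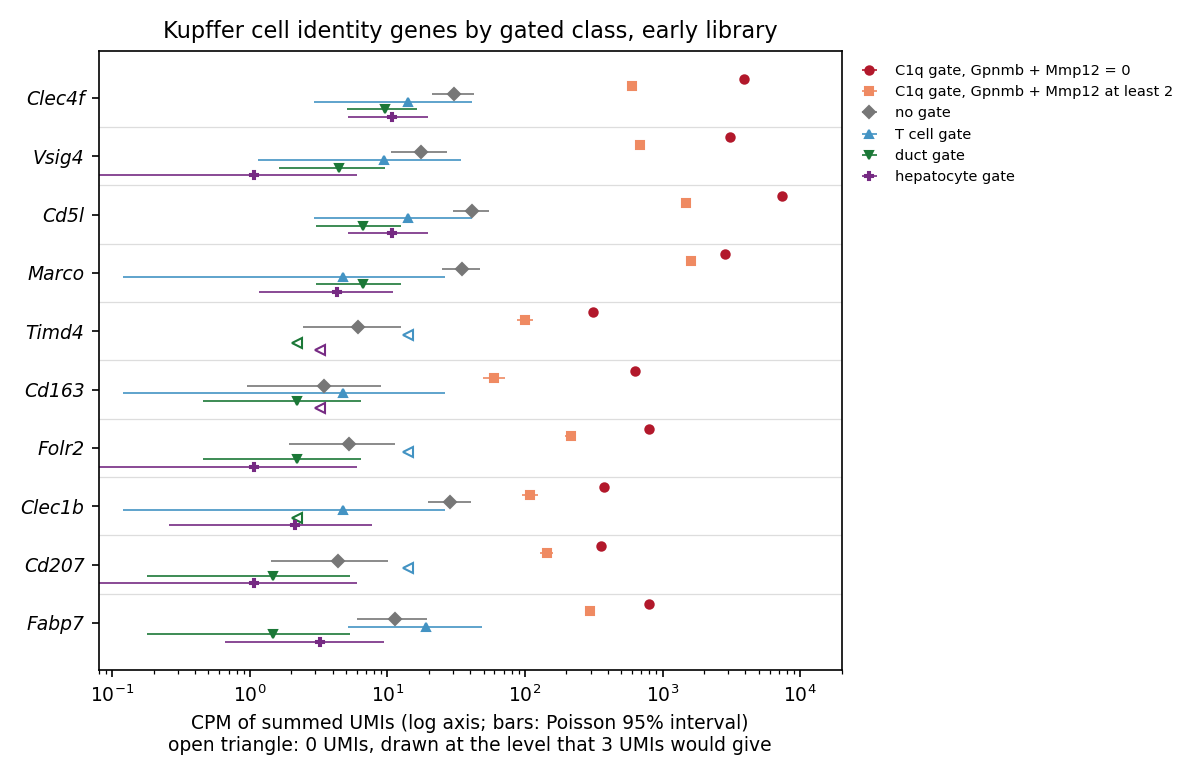
CPM of summed UMIs (log axis) of each Kupffer gene in 6 classes of the early library, with Poisson 95% intervals; open triangles stand for 0 UMIs and are drawn at the level 3 UMIs would give. Gpnmb-negative C1q barcodes run from 313 CPM (Timd4) to 7433 CPM (Cd5l), and for each gene the Gpnmb-positive C1q barcodes are the next class below.

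Hepatocyte-gated barcodes had 32 UMIs of the list in all (34.3 CPM), duct-gated 47 (34.6 CPM), T cell-gated 15 (71.0 CPM) and ungated ones 210 (183 CPM). All 10 members were at least 2-fold higher in Gpnmb-negative C1q barcodes than in each of these classes, where 25.4% (against hepatocyte), 15.8% (duct), 24% (T cell) and 19% (ungated) of all measured genes were. Their median log2 differences were 8.45, 8.59, 6.68 and 6.69, with genes at 0 set to the limit of 3 UMIs, against -0.12, -0.59, -0.01 and 0.20 over all measured genes. Timd4 had 0 UMIs in all 3 gated non-macrophage classes, which allows up to 3.22 CPM in hepatocyte-gated, 2.21 CPM in duct-gated and 14.2 CPM in T cell-gated barcodes. Cd163 had 0 UMIs in hepatocyte-gated and Clec1b 0 UMIs in duct-gated barcodes.

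Clec1b stood out in the ungated barcodes, where it was 13.01-fold lower (9.24 to 19.0) than in Gpnmb-negative C1q barcodes, the smallest gap of the 10 genes there. It is known outside macrophages on platelets and dendritic cells, and also on liver sinusoidal endothelium. Ungated barcodes were therefore divided, after the values had been seen, by the UMIs of 9 endothelial markers such as Stab2, Cdh5 and Kdr. In the 24 barcodes with at least 5 such UMIs Clec1b had 505 CPM (320.0 to 757), with a UMI in 13 of 24. In the other 245 it had 9.07 CPM (4.35 to 16.7). Its level in the endothelial-marked barcodes overlapped that of the Gpnmb-negative C1q barcodes (374 CPM), so it was not at least 2-fold apart from them as the other 9 genes were. Timd4, Cd163, Folr2, Cd207 and Fabp7 had 0 UMIs in the same 24 barcodes, which allows up to 65.8 CPM. In the macroscopic library the 27 ungated barcodes of this kind had 2 Clec1b UMIs (3.79 CPM; 0.458 to 13.7).

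Within C1q barcodes of the early library the list was 20528 CPM without and 5273 CPM (5177 to 5372) with Gpnmb or Mmp12. Of the 10 members 9 were at least 2-fold higher in the Gpnmb-negative class and 0 lower. The same 2-fold difference was seen upward in 13.3% and downward in 5.81% of 8228 measured genes, and the members' median log2 difference was 1.83 against 0.25 over all genes. Cd163 differed most, at 626 against 59.7 CPM, 10.5-fold (8.79 to 12.6). Its size depended on the processing, with log2 differences from 1.95 to 3.49 over 12 alternative settings. Clec4f ran from 2.29 to 2.78 there, so Cd163 did not differ most in every setting. Clec4f stood at 3924 against 597 CPM, 6.57-fold (6.21 to 6.96), Cd5l at 7433 against 1474 CPM, 5.04-fold, and Vsig4 at 3092 against 682 CPM, 4.53-fold. Folr2, Clec1b and Timd4 were 3.68-fold, 3.44-fold and 3.12-fold higher.

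Fabp7, Cd207 and Marco differed least between the C1q classes. Fabp7 was 2.68-fold higher without Gpnmb or Mmp12 (2.47 to 2.92), and Cd207 was 2.496-fold higher (2.21 to 2.82). Marco, at 2823 against 1597 CPM, was 1.77-fold higher (1.704 to 1.84). With every barcode given equal weight Fabp7 and Cd207 also fell short of 2-fold, at log2 differences of 0.97 and 0.85, and without the 5% deepest barcodes Marco passed it at 1.13. The Gpnmb-positive barcodes were deeper, with a median of 7793 UMIs against 2473. Markers of other cells moved with the split: 9 hepatocyte markers summed to 940 CPM without and 669 CPM with Gpnmb or Mmp12. The 9 endothelial markers summed to 665 and 112 CPM. They include Cdh5, which is also among the Kupffer-enriched genes listed here, and Stab2, which is also among the scavenger receptors listed. Haemoglobin and other erythroid genes had 1130 against 2.80 CPM, with 98.6% of their UMIs without Gpnmb or Mmp12 in 5 barcodes, and 5 cycling genes 145 against 21.9 CPM. Of 9 monocyte and dendritic markers all 9 were detected at 59.1 CPM without, and 8 at 363 CPM with, Gpnmb or Mmp12 (Xcr1 at 0). Cholangiocyte markers, which include the macrophage-expressed Spp1, stood at 98.3 CPM (9 of 9 detected) without and 286 CPM (6 of 9) with, stellate cell and fibroblast markers at 115 and 206 CPM, and macrophage markers at 17893 and 46190 CPM. Their part in the differences was not tested.

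The Gpnmb-positive class held barcodes of opposite kinds. Of its 267 barcodes 133 (49.8%; 43.7 to 56.0) had a UMI of 0 or 1 of the 10 genes, 46 (17.2%) of 2 to 5 and 88 (33.0%; 27.4 to 39.0) of 6 or more. In the Gpnmb-negative class 23 of 1757 (1.31%) had 0 or 1, and 1485 (84.5%) had 6 or more. The 93 barcodes with 1 Gpnmb or Mmp12 UMI lay between, with 10 (10.8%) at 0 or 1 and 67 (72.0%) at 6 or more. At an equal depth of 2000 UMIs the share with 0 or 1 was 58.1% (143 of 246) and 1.92% (21 of 1092) with and without Gpnmb or Mmp12. Shallower barcodes, 21 and 665 of them, were left out there.

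**Figure D2:**
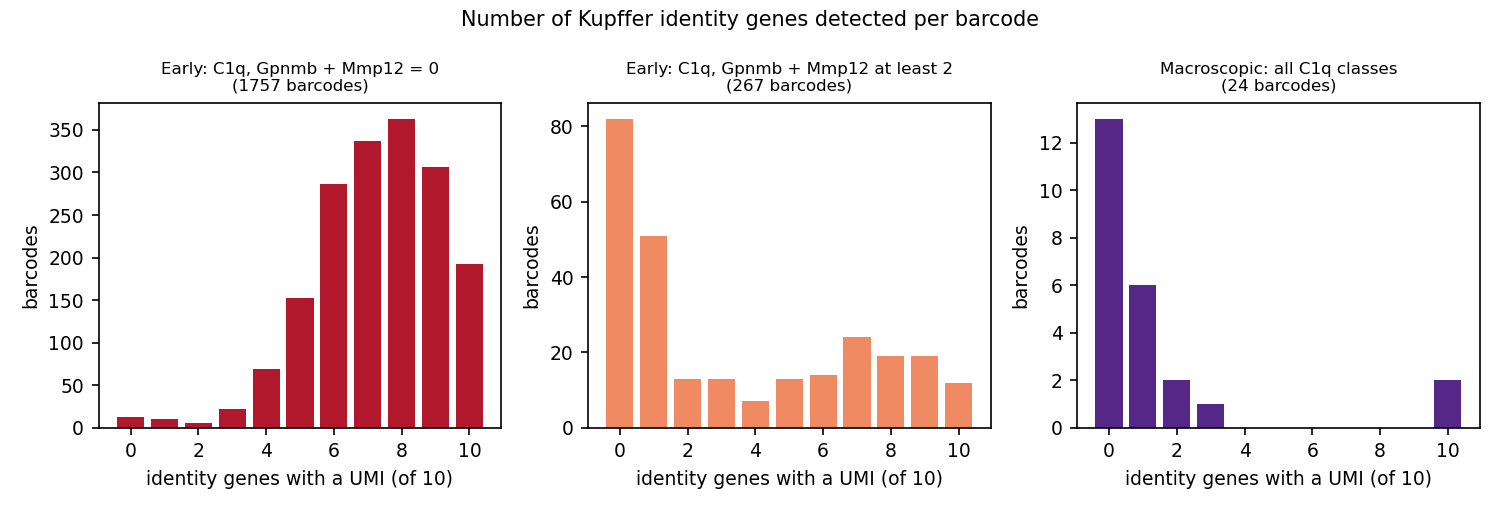
Number of the 10 Kupffer genes with at least 1 UMI (x axis) by count of barcodes (y axis), in 2 early C1q classes and in all macroscopic C1q barcodes. Early Gpnmb-positive barcodes have a group at 0 or 1 gene (133 of 267) and another at 6 or more (88), and the macroscopic panel has 2 barcodes with 10 genes apart from 22 with 3 or fewer.

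Other genes differed between these subsets too. In the 88 barcodes with 6 or more members Gpnmb stood at 497 CPM and Mmp12 at 1836 CPM. In the 133 barcodes with 0 or 1 member Gpnmb was higher at 2831 CPM and Mmp12 lower at 643 CPM. Ccr2, the chemokine receptor of circulating monocytes, had 22.8 CPM in the first and 77.7 CPM in the second, and Cd74, the MHC class II invariant chain, 9550 and 31434 CPM. Among 25 other Kupffer-enriched genes 24 were at least 2-fold higher in the first subset, where 12.1% of 7235 measured genes were. The lectin Fcna, at 1193 against 6.18 CPM, was 193-fold higher (93.3 to 482), and Lyve1, a hyaluronan receptor, had 97 UMIs against 1. Among 20 measured monocyte and recruited-macrophage genes 16 were at least 2-fold lower, against 4.63% of all genes. The chemokine receptor Cx3cr1 was 19.1-fold lower (8.01 to 59.7) and Spp1 (osteopontin) 14.7-fold, whereas Fn1 (fibronectin) was 16.1-fold higher. The members' own values are fixed by the division and are given as levels only: the list had 14273 CPM in the first subset, 118 CPM in the second and 3702 CPM in the 46 between.

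C1q barcodes were also divided by the 3 best-detected genes, a step added after the values had been seen. In the 114 Gpnmb-positive barcodes with 0 UMIs of each of Clec4f, Vsig4 and Cd5l, Cd207 had 83.5 CPM (66.1 to 104) from 79 UMIs. These sat in 9 barcodes, 6 of them with 5 UMIs or more and 1 with 31. Without that barcode Cd207 had 51.1 CPM (37.7 to 67.8). The next highest member was Fabp7 at 26.4 CPM (17.1 to 39.02), whose interval overlaps that lower value, followed by Marco at 12.7 CPM. In the 18 Gpnmb-negative barcodes without the 3 genes Cd207 had 29 UMIs in 3 barcodes, 312 CPM (209 to 448), or 191 CPM (111 to 306) without the highest of the 3, and no other member had more than 2 UMIs. Langerin is also the marker protein of Langerhans cells and of some dendritic cells.

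**Figure D3:**
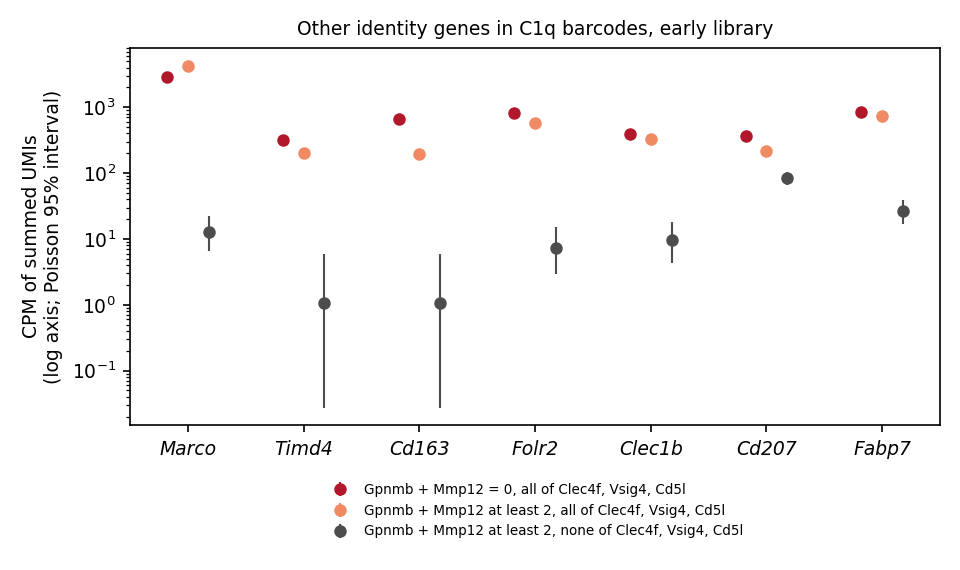
CPM (log axis, Poisson 95% intervals) of the other 7 Kupffer genes in early C1q barcodes with all or none of Clec4f, Vsig4 and Cd5l. In the 114 Gpnmb-positive barcodes with none of them Cd207 stands at 83.5 CPM, above the other 6 genes, of which Fabp7 is highest at 26.4 CPM.

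Among the 87 Gpnmb-positive barcodes with all of Clec4f, Vsig4 and Cd5l, members other than these 3 differed in how near they came to the 1657 Gpnmb-negative barcodes with all 3. Marco was higher in the Gpnmb-positive ones, at 4231 CPM (4066 to 4400) against 2854 CPM (2809 to 2900.1). Clec1b (330 against 399 CPM) and Fabp7 (741 against 840.2 CPM) were lower, with intervals just apart. All intervals of this comparison hold counting error only and leave out the spread between barcodes. Cd163 was the lowest by comparison, at 195 CPM (161 to 235) against 659 CPM (637 to 681). Timd4 stood at 200 against 314 CPM, Cd207 at 216 against 371 CPM and Folr2 at 567 against 812 CPM. Clec4f, Vsig4 and Cd5l chose these barcodes, and stood at 2103, 1674 and 4232 CPM in the Gpnmb-positive against 4231, 3241 and 7884 CPM in the Gpnmb-negative ones. The Gpnmb-positive ones were deeper, with a median of 5747 UMIs against 2486, and these levels were not compared at equal depth. No doublet caller was run, and the part of depth or of mixed cells in a barcode was not tested.

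Other Kupffer genes followed the members in the comparison of Gpnmb-negative with Gpnmb-positive C1q barcodes. Of 25 further Kupffer-enriched genes 21 were at least 2-fold higher without Gpnmb or Mmp12 and 0 lower, with a median log2 difference of 1.87. For this and the following lists, the shares over all measured genes are the 13.3% higher and 5.81% lower given above for this comparison. Paqr9 was 9.52-fold (7.02 to 13.2) and Gfra2, a GDNF-family receptor, 9.36-fold higher, whereas Lyve1 (56.5 against 83.05 CPM) and Dnase1l3 (15.3 against 16.8 CPM) were not. Of 20 factors of the Kupffer lineage 6 were at least 2-fold higher, among them the transcription factors Maf (793 against 230 CPM, 3.46-fold) and Irf7 (3.44-fold), and 2 lower, Runx3 and Pparg. Scavenger and clearance receptors went both ways, with 6 of 24 higher and 7 lower. The mannose receptor Mrc1 was 4.11-fold and Stab2 4.03-fold higher, and the integrin Itgax was 18.8-fold and the Fc receptor Fcgr2b 11.5-fold lower. Of 20 monocyte and recruited-macrophage genes 19 were lower and Plac8 was 5.99-fold higher. Chil3, a chitinase-like protein, had 1 UMI without and 64 with Gpnmb or Mmp12, 173-fold lower (30.02 to 6954). The fatty acid-binding protein Fabp5 was 87.2-fold lower (76.3 to 100.03) and Fn1 2.39-fold lower. Of 11 niche receptors and signals 3 were higher, including Bmpr2 and Smad6, and 2 lower, Tgfbr1 and Csf2ra.

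Genes with the pattern most like the list's were sought over 12 class-by-library sums of at least 10 barcodes, by Pearson r of log2 (CPM + 10) with the members' mean. They were Fcna (r 0.995), Spic (0.989), Slc7a8 (0.988), P2ry12 (0.987), Tns4 (0.985), Siglec1 (0.982), Arhgap19 (0.981), Trpm2 (0.976), Msr1 (0.975) and Kcnj10 (0.975). Of 10697 genes compared 50 reached 0.95 and 1 reached 0.99. The points share their libraries and differ in depth, and these values are descriptive. Fcna, a ficolin of the lectin complement pathway, had 1990 CPM in Gpnmb-negative and 447 CPM in Gpnmb-positive C1q barcodes, and Spic, a transcription factor of iron-recycling macrophages, 109 and 37.8 CPM.

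The members varied unequally among the Gpnmb-negative C1q barcodes. With each barcode thinned to 2000 UMIs (1092 barcodes, with 665 shallower ones left out), Marco had the highest variance over mean, 7.03. Cd5l had 3.12, Clec4f 2.44, Fabp7 1.97, Cd207 1.89 and Timd4 1.14, where 1 is the value of pure counting. For Marco the ratio was 4.80 at 1000 and 14.9 at 5000 UMIs. Because the ratio grows with the mean count, it does not rank genes of unlike level by unevenness. The 109 barcodes with the most of a gene held 48.0% of all Cd207 UMIs and 36.3% of all Marco UMIs, against 18.1% for Cd5l and 20.4% for Clec4f. Members with few UMIs had high shares too, with 40.3% for Timd4 and 37.5% for Clec1b. Marco ran from 0 UMIs at the 10th percentile of barcodes to 14 at the 90th, with a median of 3. Cd5l ran from 7 to 24 with a median of 15. Across these barcodes Pearson's r of log2 (UMIs + 1) was 0.53 for Clec4f with Cd5l, 0.39 for Vsig4 with Cd5l and 0.36 for Clec4f with Vsig4. It was -0.17 for Marco with Cd207, the lowest of the 45 pairs.

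Levels of some members differed between shallow and deep barcodes. Gpnmb-negative C1q barcodes were ordered by their UMIs and cut into 3 groups of near equal number. From the shallowest to the deepest group the list's sum was 20675, 20891 and 20340 CPM. Cd207 stood at 235 CPM in the shallowest, 275 CPM in the middle and 423 CPM in the deepest group, and Folr2 at 564, 648 and 908 CPM. Marco went the other way, at 3382, 2873 and 2671 CPM. Detection of Marco with Cd207 is compared below at an equal number of drawn UMIs. Such drawing evens out sampling but does not remove these differences in level, whose part in the comparison was not tested. The values on all UMIs stand in the closing section.

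**Figure D4:**
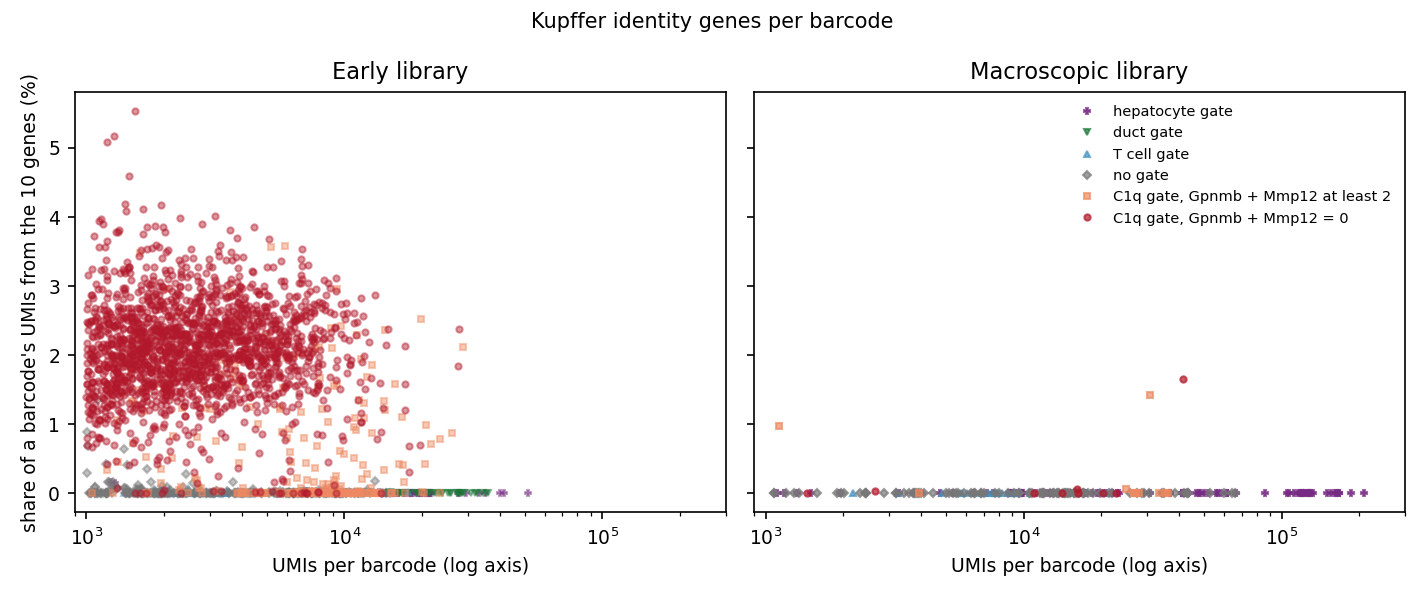
Share of each barcode's UMIs that came from the 10 genes (y axis, percent) by its UMI total (x axis, log), coloured by class, in both libraries. Early Gpnmb-negative C1q barcodes centre on a median of 2.08%, and in the macroscopic library 2 barcodes with 10 members stand at 1.65% and 1.42%.

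Clec4f, Vsig4 and Cd5l were found together in nearly all of these barcodes. All 3 had a UMI in 1657 of 1757 (94.3%; 93.1 to 95.3), and none in 18 (1.02%). At 2000 UMIs Clec4f was present in 97.7% of barcodes with Cd5l and in 1 of 28 without it. In 40 of the 45 pairs of members at that depth a gene was detected more often with than without its partner. In 25 of these the intervals did not overlap. Only Marco and Cd207 differed the other way with intervals apart. Cd207 was detected in 36.5% of barcodes with Marco (33.3 to 39.9) and 48.8% of those without (42.6 to 55.1).

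The pairs were then read within barcodes that held all of Clec4f, Vsig4 and Cd5l, so that barcodes without the list did not enter. At 2000 UMIs (1038 barcodes) the other 7 genes gave 21 pairs. In 12 a gene was detected more often with than without its partner, and in 9 less often. Of the 12, 0 had intervals apart. For Marco and Cd207 the intervals remained apart. Cd207 was present in 37.1% of barcodes with Marco (33.8 to 40.5) and in 53.7% without (47.03 to 60.4). Its share went from 53.7% at 0 Marco UMIs to 42.7% at 1 to 2 and 39.0% (32.2 to 46.1) at 3 to 5. It was 38.1% at 6 to 10 and 26.7% (20.3 to 33.9) at 11 or more. Over the same steps Timd4 was at 39.6%, 44.5%, 43%, 49.3% and 41.5%, and Fabp7 at 68.3%, 71.8%, 66%, 74.0% and 64.8%. Intervals of each of these genes overlapped between the lowest and highest Marco step.

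**Figure D5:**
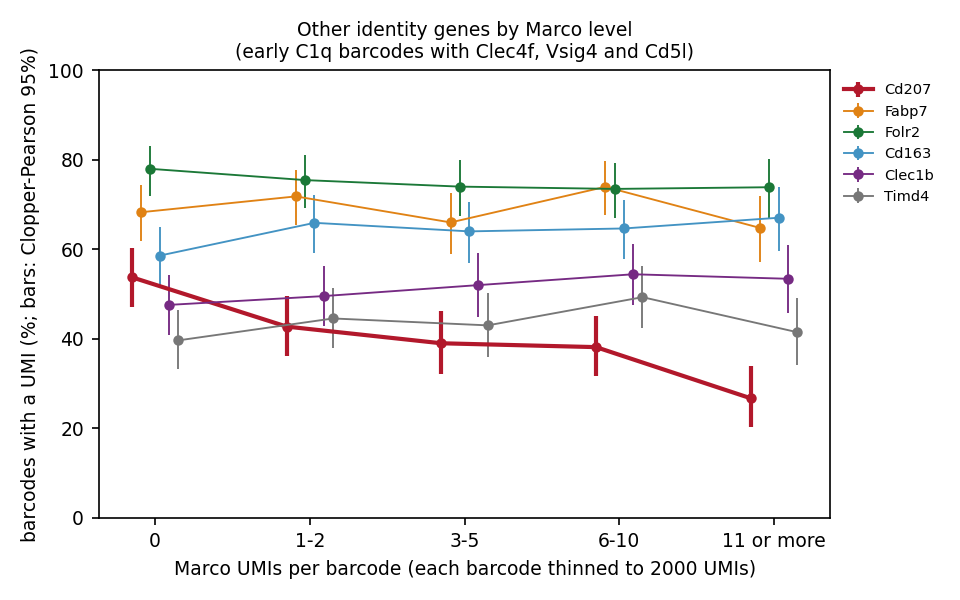
Share of early Gpnmb-negative C1q barcodes with a UMI of 6 other Kupffer genes (y axis, percent, Clopper-Pearson 95% intervals) by Marco UMIs (x axis), in 1038 barcodes with Clec4f, Vsig4 and Cd5l thinned to 2000 UMIs. Cd207 goes from 53.7% at 0 Marco UMIs to 26.7% at 11 or more, and intervals at these 2 ends overlap for each of the other 5 genes.

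At 1000 UMIs the shares of Cd207 with and without Marco were 19.6% and 29.2%, also with intervals apart. At 5000 UMIs, where 282 barcodes remained, they were 68.4% (62.2 to 74.2) and 78.9% (62.7 to 90.4), which overlap. When barcodes without Clec4f, Vsig4 or Cd5l were left in at 5000 UMIs, Cd207 was more often present with Marco, at 65.2% against 58.6%, again with overlapping intervals. The lower co-detection of the pair was thus seen with intervals apart at 1000 and 2000 UMIs. At 5000 UMIs intervals overlapped and the direction depended on the restriction to barcodes with the 3 genes. In Gpnmb-positive barcodes with the 3 genes Cd207 was present in 31.3% of 64 with Marco and 16.7% of 12 without at 2000 UMIs, with wide overlapping intervals.

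The macroscopic library held little of the list. It had 1178 list UMIs in barcodes of at least 1000 UMIs, of which 1124 (95.4%) came from 2 barcodes that each held all 10 members. At least 5 members were found in 2 of 241 macroscopic barcodes (0.830%; 0.101 to 2.97) and in 1817 of 2620 early ones (69.4%; 67.5 to 71.1). At an equal depth of 2000 UMIs the counts were 2 of 225 and 1158 of 1785 (64.9%), with 16 and 835 shallower barcodes left out. C1q barcodes were 9.96% of the macroscopic and 80.8% of the early barcodes, and the part of this in the difference was not tested.

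The first of the 2 barcodes, Gpnmb-negative with 41515 UMIs, had 271 UMIs of Cd5l, 177 of Clec4f and 92 of Vsig4. It had 44 of Fabp7, 31 of Folr2, 25 of Cd163, 21 of Timd4, 11 of Cd207, 10 of Clec1b and 5 of Marco. The second, with 30791 UMIs, 3 of Gpnmb and 4 of Mmp12, had 139 of Cd5l, 112 of Clec4f, 64 of Marco, 43 of Cd207 and 35 of Fabp7, but 2 of Timd4 and 1 of Cd163. Both had 0 UMIs of Ccr2, which was present in 9 of the other 22 C1q barcodes. Those 22 had 45 list UMIs in all, 110 CPM (80.1 to 147), and 13 of them had none. A Gpnmb-negative barcode among them had 9 Clec1b UMIs, 13 of Stab2 and 0 of the other 9 members, with Csf1r also at 0. Another, with 1123 UMIs, was in the Gpnmb-positive class through 7 UMIs of Mmp12, with 0 of Gpnmb. It had 5 of Cd5l, 4 of Clec4f and 2 of Folr2, 0.980% of its UMIs.

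Over all C1q barcodes the list stood at 2424 CPM in the macroscopic and 16316 CPM in the early library, 14.9% of the early level (14.0 to 15.7). Without the 2 barcodes it was 0.673% (0.491 to 0.900). Among Gpnmb-negative barcodes, macroscopic levels of 10 of 10 members were below the early ones by 2-fold or more, where 17.2% of 8547 measured genes were (16.2% were above). Among Gpnmb-positive barcodes 8 of 10 were, where 15.3% of 7720 genes were (7.29% were above), with Clec4f at 422 against 597 CPM and Cd207 at 156 against 144 CPM (0.772 to 1.501 as a ratio). Other markers differed too: in Gpnmb-negative barcodes the macroscopic library had 944 against 59.1 CPM of monocyte and dendritic, 1552 against 665 of endothelial and 349 against 98.3 of cholangiocyte markers, and their part in the difference was not tested. These counts rest on 9 and 11 macroscopic barcodes and on 1 barcode with all 10 members in each. In the Gpnmb-negative class that barcode held 687 of the 698 list UMIs. The list was 1.65% of its UMIs, against a median of 2.08% in early Gpnmb-negative barcodes. The class levels therefore do not separate the level within a barcode from the number of barcodes that carry the list. Stage, library, animals and the tissue digested (liver or macroscopic lesions) cannot be told apart here.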

How the data were processed

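The authors deposited 1 matrix of UMI counts per library, made with Cell Ranger 3.0.2 on mm10 and used with Seurat 2.3.0, per the submitters' processing notes. How barcodes were filtered and which annotation was used are not given in the sources used here. The counts were used unscaled: UMIs were summed over the barcodes of a class and given as CPM with exact Poisson intervals, CPM ratios with exact conditional binomial intervals and shares with Clopper-Pearson intervals, at 95%. A count of 0 was set to 3 counts as its limit. With 1 library per stage no test was run and calls are ratios of at least 2, over genes with at least 20 UMIs in both sums together and 10 CPM in 1.

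Barcodes had at least 1000 UMIs. Gates used raw UMIs of genes outside the list, and barcodes past more than 1 gate (17 early, 5 macroscopic) were set aside. No doublet caller was run. Depth was equalised where stated by drawing 1000, 2000 or 5000 UMIs per barcode at random with a fixed seed. The ratio calculation was tested on simulated class sums with Poisson counts. These have no spread between barcodes, so the test checks the calculation and not whether the intervals suit these data. Besides the 10 genes, the genes named are those with the largest and smallest ratio in each list (at least 50 UMIs) and the 10 with the most similar pattern; Ccr2, Cd74, and the divisions by detected members, by Clec4f, Vsig4 and Cd5l and by endothelial markers were chosen after values were seen. The members, lists and gates were chosen with earlier results of these data known. Alternatives changed gates, depth, weighting, scaling and filters. Positions are from GENCODE M21 (GRCm38) and upstream sequences from RefSeq (GRCm38.p6). Calculations used Python 3.11.15, numpy 2.4.6, scipy 1.17.1 and pandas 2.3.3.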

Additional observations from a re-analysis of the deposited data

Results flagged for a closer look

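Early barcodes with fewer than 1000 UMIs, which no comparison above used, also carried the list. The 10 genes stood at 15853 CPM (15481 to 16231) in these 601 barcodes, with a median of 715 UMIs, and 474 of them (78.9%) had a UMI of at least 1 member. Cd5l had 5640 CPM, Marco 3425, Clec4f 2595 and Vsig4 2303 there, so that Marco came before Clec4f. The 15 macroscopic barcodes of that depth had 1 list UMI, of Clec1b.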

How the results depend on the processing

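The list's level in Gpnmb-negative and Gpnmb-positive C1q barcodes was 20528 and 5273 CPM. It was 20651 and 5437 CPM with at least 10 C1q UMIs, 20809 and 4764 without the 5% deepest barcodes, 20345 and 5924 after thinning to 1000 UMIs before gating, and 20795 and 6122 with equal weight per barcode. The share of Gpnmb-negative barcodes with 5 or more members, 93.2%, was 96.6% with at least 2000 UMIs, 94.6% with at least 10 C1q UMIs and 77.2% at 1000 UMIs. The count of 9 members higher without Gpnmb or Mmp12 lay between 7 and 10, and that of 10 higher than in every other class was 7 at 1000 UMIs, 9 with endothelial-marked ungated barcodes apart, and 10 otherwise. Fabp7 fell short of 2-fold at 1000 UMIs too (log2 0.74). No member changed sign.

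The macroscopic level as a share of the early one, 14.9%, was 7.75% with overlapping gates, 11.7% and 8.41% after thinning to 1000 and 2000 UMIs, 9.42% with equal weights, 16.1% with median-of-ratios scaling and 0.673% without the 2 barcodes. The share of barcodes with Cd207 differed by -3.43 points between barcodes with and without Marco on all UMIs. The difference was -8.00 and -9.71 points after thinning to 1000 and 2000 UMIs before gating, and -8.92, -12.3 and +6.61 points at 1000, 2000 and 5000 UMIs after gating. Within barcodes with Clec4f, Vsig4 and Cd5l it was -6.70 on all UMIs and -9.60, -16.6 and -10.5 points at 1000, 2000 and 5000 UMIs. The cause of these shifts was not tested. Thinning to 2000 UMIs before gating, leaving out the 2 barcodes, the restriction to 3 genes and the endothelial division were added after the data had been seen. No paired analysis was possible because each stage has 1 library, and for the same reason no replicate could be left out.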
